A study of Mus musculus with 2 samples.

Results

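The 10 genes described here are Xbp1, Atf4, Ddit3, Hspa5, Dnajb9, Sdf2l1, Herpud1, Trib3, Asns and Chac1, which are read as markers of endoplasmic reticulum (ER) stress and of the integrated stress response. They were chosen by symbol, 10 of the 31053 genes in the deposited matrices, and each symbol was found once. The samples were 2 single-cell libraries of liver cells from C57BL/6 mice, 1 from mice on chow (the chow library) and 1 from mice on a NASH diet (the NASH library), a feed rich in fructose, fat and cholesterol, NASH standing for non-alcoholic steatohepatitis. Both diets lasted 6.5 weeks, and the labels name no transgene, drug or other treatment. The sources used here give no number, age or sex of the mice, and whether animals were pooled is likewise not known from them. The livers were dissociated with collagenase and separated on Percoll so that hepatocytes and other liver cells were both kept.

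Secreted proteins fold in the ER, and the liver is among the organs that secrete most. When unfolded protein accumulates, the sensors IRE1, PERK and ATF6 start the unfolded protein response: IRE1 splices Xbp1 mRNA into the form that codes for an active transcription factor, ATF6 is cleaved to a transcription factor, and PERK phosphorylates eIF2α. Phosphorylation of eIF2α, which other kinases also perform when amino acids or haem run short or when viral RNA is present, slows protein synthesis while Atf4 mRNA is translated more, and this shared arm is the integrated stress response. XBP1 and ATF6 act on genes for chaperones and for ER-associated degradation, and ATF4 on genes for amino acid supply and on Ddit3, which codes for CHOP. The counts below are of 3′ ends and do not separate spliced from unspliced Xbp1 mRNA, and Atf4 is controlled largely in translation, so the mRNA levels do not show the activity of either factor.

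The promoters of the members were searched for the response elements through which these factors are known to act, and the matches are printed as they lie in 2 of the 3 members with the most UMIs. RefSeq windows on GRCm38.p6, from 250 bases before to 50 bases after the annotated start, were matched for 10 of 10 members. The ER stress response element (ERSE: CCAAT, then 9 free bases, then CCACG, searched on both strands like the others) was found in Hspa5, beginning 65 bases before the RefSeq start. It lies within the stretch chr2:34772019-34772048 on the plus strand. In the GENCODE annotation, used for the gene positions further on, Hspa5 starts earlier, at 34771970, so that this stretch lies within the gene. The second form of that element (ERSE-II: ATTGG, then 1 free base, then CCACG) was found in Herpud1, beginning 52 bases before the RefSeq start. It lies within the stretch chr8:94386367-94386396 on the plus strand. In both stretches, written 5′ to 3′, capitals mark the match.
Hspa5: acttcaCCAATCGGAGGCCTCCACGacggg
Herpud1: ccgggcgctgATTGGGCCACGttggacact
Of 32851 promoter windows of that length, 39 (0.119%) held an ERSE and 12 (0.0365%) an ERSE-II. The unfolded protein response element TGACGTGG, found in 222 windows (0.676%), the C/EBP-ATF response element TGATGNAAT, found in 317 (0.965%), and the cyclic AMP response element TGACGTCA, found in 588 (1.79%), had no match in the windows of the 10 members.

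The chow library held 71635757 unique molecular identifiers (UMIs, each counting 1 captured RNA molecule) over 7359 barcodes, and the NASH library 39440182 over 5881. Of these barcode sequences, 69 occurred in both libraries. Hepatocyte barcodes, defined by hepatocyte marker genes, at least 5000 non-mitochondrial UMIs and at most 30% mitochondrial UMIs, numbered 1857 and 939. Levels are a gene's UMIs per 1000000 non-mitochondrial UMIs, summed over the barcodes of a set and written CPM. They count 3′ ends, 1 per molecule, whatever the length of the transcript. The summed hepatocyte markers of these barcodes stood at 139708 and 133319 CPM, and those of endothelial cells at 4.59 and 5.99 and of Kupffer cells at 3.07 and 1.54. Their median depth was 21454 and 16123 non-mitochondrial UMIs, and their median mitochondrial share was 18.7% and 23.8%, so the barcodes compared between diets differed in both. With 1 library per diet there is no replicate check, so no test between diets was made. The intervals are exact 95% intervals that cover counting error alone and leave out the spread between cells and between mice.

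In hepatocyte barcodes the 10 genes did not move together between the diets. Ddit3 was 1.91-fold higher in the NASH library, Herpud1 and Hspa5 were slightly higher, and Asns, Chac1 and Sdf2l1 were 4.22-, 3.25- and 2.42-fold lower. Xbp1 and Atf4 were also lower. The median log2 ratio of the 10 genes, NASH diet over chow, was −0.30, against a median of 0.19 over the 6985 genes with at least 10 CPM in either library. Asns, Chac1 and Trib3 were below 10 CPM in both libraries and so were not among those genes. Over the other 7 members, which were, the median was 0.039. Ddit3, at 7.05 CPM in chow and 13.5 in the NASH library, was among these 7 through the NASH library alone. The sign of the members' median thus depended on which rare genes were counted, and the median of the 7 is not free of that filter. Of the 10, 4 had a ratio above 0, where 70.3% of all genes tested had. At least 2-fold lower were 3 of 10 (2.51% of all genes tested) and at least 2-fold higher 0 of 10 (4.05%). Asns and Chac1, among those 3, could not enter the 2.51%, and of the 7 members that could, 1 was at least 2-fold lower, Sdf2l1. The interval lay above 0 for 3 members (53.4% of all genes tested) and below 0 for 5 (17.4%). Asns and Chac1, among those 5, could not enter the 17.4% either, which leaves Xbp1, Atf4 and Sdf2l1.

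**Figure D1:**
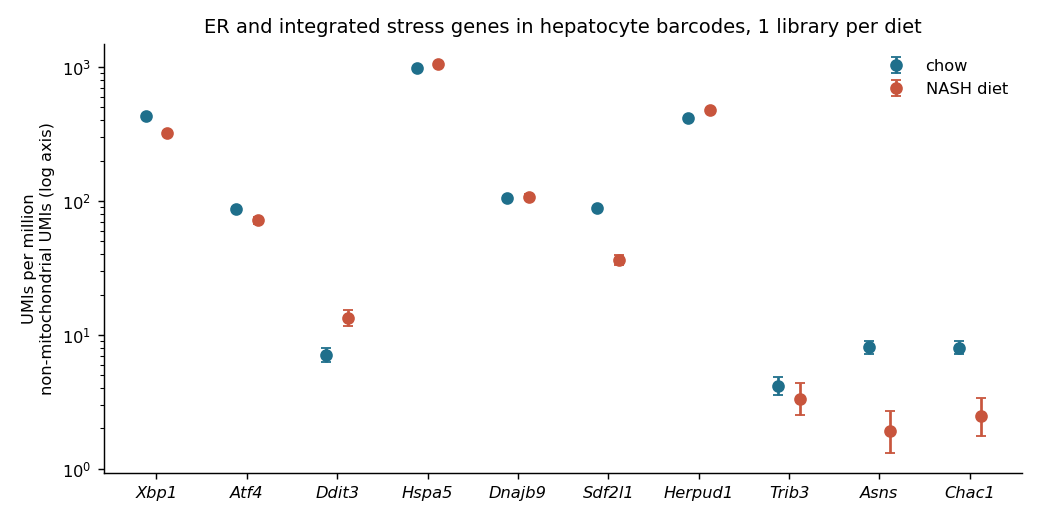
Level of each gene in hepatocyte barcodes of the chow and the NASH library, in CPM on a log axis, with exact 95% Poisson intervals as bars. Points of Asns, Chac1 and Sdf2l1 lie clearly lower in the NASH library and the point of Ddit3 clearly higher, while those of Hspa5 and Dnajb9 lie close together.

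Among the transcription factors, Xbp1 (ENSMUSG00000020484, GRCm38 chromosome 11, 5520659 to 5525893) was counted 17269 times in chow and 5242 times in NASH, or 430.4 and 324 CPM. Its log2 ratio was −0.41 (−0.46 to −0.37), or −0.60 once the all-gene median of 0.19 is subtracted. Atf4 (ENSMUSG00000042406, chromosome 15, 80255184 to 80257541) had 3498 and 1161 UMIs, or 87.2 and 71.7 CPM, a log2 ratio of −0.28 (−0.38 to −0.19). The level of both was lower with the NASH diet by an amount beyond counting error. Ddit3 (ENSMUSG00000025408, chromosome 10, 127290774 to 127296288), which codes for the factor CHOP and is linked to cell death under long stress, went the other way. It had 283 and 218 UMIs, or 7.05 and 13.5 CPM, a log2 ratio of 0.93 (0.67 to 1.19). These are few molecules, spread over 245 of 1857 chow and 182 of 939 NASH barcodes, with at most 3 and 5 in any barcode. The last 68 bases of Ddit3 overlap Mars, the cytosolic methionyl-tRNA synthetase, on the opposite strand, and the sources used here do not say whether strand was counted. Mars stood at 16.4 and 17.7 CPM, a log2 ratio of 0.10. A second gene model over the first exons of Ddit3, listed as AC144852.1, had 0 UMIs in the hepatocyte barcodes of both libraries.

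Of the ER chaperones, Hspa5 (ENSMUSG00000026864, chromosome 2, 34771970 to 34777547) codes for BiP, the main ER chaperone, which also holds the stress sensors inactive. There were 39740 UMIs of it in chow and 16947 in the NASH library, or 990.4 and 1047 CPM, the most UMIs of the 10 genes in both. Its log2 ratio was 0.08 (0.05 to 0.11), and −0.11 once the all-gene median is subtracted, so its direction turned with the scaling. Dnajb9 (ENSMUSG00000014905, chromosome 12, 44205559 to 44210326) codes for ERdj4, a co-chaperone that returns BiP to IRE1. It stood at 105 and 108 CPM, with 4203 and 1742 UMIs and a log2 ratio of 0.04 (−0.04 to 0.12), an interval that includes 0. Sdf2l1 (ENSMUSG00000022769, chromosome 16, 17130138 to 17132383) codes for a partner of ER-resident DnaJ proteins in folding. It had 3526 and 589 UMIs, or 87.9 and 36.4 CPM, a log2 ratio of −1.27 (−1.40 to −1.15). Hspa5 and Sdf2l1, both known targets of ATF6 and XBP1, thus had unlike ratios in the same barcodes, with intervals far apart.

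Herpud1 (ENSMUSG00000031770, chromosome 8, 94386438 to 94395377) codes for a membrane protein that organises ER-associated degradation, in which misfolded protein is drawn out of the ER and broken down. It had 16695 and 7749 UMIs, or 416 and 479 CPM, a log2 ratio of 0.20 (0.16 to 0.24). This is close to the shift of all genes, leaving 0.02. Its antisense neighbour Gm15890 had 1 and 0 UMIs.

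The 3 members known mainly as targets of ATF4 and CHOP were rare. Asns (ENSMUSG00000029752, chromosome 6, 7675169 to 7693254), the enzyme that makes asparagine, was counted 324 times in chow and 31 times in NASH, or 8.07 and 1.92 CPM, a log2 ratio of −2.08 (−2.66 to −1.54). Chac1 (ENSMUSG00000027313, chromosome 2, 119351229 to 119354381), an enzyme that breaks down glutathione, had 322 and 40 UMIs, or 8.02 and 2.47 CPM, a ratio of −1.70 (−2.21 to −1.22). Trib3 (ENSMUSG00000032715, chromosome 2, 152337422 to 152344032), a pseudokinase that restrains AKT and ATF4, had 166 and 54 UMIs, or 4.14 and 3.34 CPM. Its ratio of −0.31 (−0.78 to 0.14) includes 0. Asns and Chac1 were thus lower while Ddit3, which shares ATF4 as a known regulator, was higher. In the NASH library 1 barcode held 4 of the 31 Asns UMIs, or 12.9%.

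The other genes of these pathways were read from 7 lists, each described by its genes with at least 10 CPM in either library. Their counts are to be read against the 70.3% of all genes tested that had a ratio above 0 and the all-gene median of 0.19. The chaperones and folding enzymes of the ER were mostly lower with the NASH diet: 4 of 20 had a ratio above 0 and 16 below, 3 lay above the all-gene median, and the list's median was −0.40. Their summed level was 7736 CPM in chow and 5397 in the NASH library. The lowest ratios were those of Pdia6, a protein disulfide isomerase, which went from 414 to 218 CPM, −0.92 (−0.98 to −0.87), and Calr, the lectin chaperone calreticulin, at −0.89 (−0.92 to −0.86), which went from 1552 to 838 CPM. The highest were Txndc5, also a disulfide isomerase, at 0.43 (0.36 to 0.50) and Creld2, a stress-induced ER protein, at 0.32 (0.21 to 0.42). Hspa5, which is not counted in that list, therefore stood above most ER chaperones in its ratio.

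In ER-associated degradation 10 of 18 genes had a ratio above 0 and 8 below, but 4 of 18 lay above the all-gene median, and the list's median was 0.04, or −0.15 once the all-gene median is subtracted. Derl3, a derlin of the retrotranslocation channel, had a ratio of −1.11 (−1.35 to −0.89) and the selenoprotein Selenok −0.38 (−0.44 to −0.31). Sel1l, the scaffold of the HRD1 ubiquitin ligase, had 0.24 (0.17 to 0.31) and Edem3, a mannosidase, 0.23 (0.05 to 0.40). Translocation and signal peptide processing had 5 of 19 higher and 14 lower, 4 above the all-gene median and a list median of −0.21. Ssr4, a subunit of the translocon-associated complex, had −0.67 (−0.74 to −0.61) and Sec61g of the translocon channel −0.59 (−0.62 to −0.55), against 0.23 (0.04 to 0.41) for Srp54a and 0.33 (0.27 to 0.39) for Sec62.

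The list of stress sensors and eIF2α kinases, which also holds the proteases of ATF6, Eif2s1 and Nfe2l2, had 7 of 11 genes tested, of which 5 were higher and 2 lower, 5 above the all-gene median, with a list median of 0.44. The sensors themselves did not share a direction. Ern1, which codes for IRE1α, stood at 25.9 and 19.2 CPM, a ratio of −0.43 (−0.62 to −0.25). The genes of the other sensors, added after their values were seen, were Eif2ak3 for PERK, not among the genes tested, at 9.74 and 7.60 CPM with −0.36 (−0.66 to −0.06), and Atf6 at 42.5 and 59.0 CPM with 0.47 (0.36 to 0.59). Mbtps1, a protease that cleaves ATF6, had −0.18 (−0.35 to −0.02). Eif2s1, the eIF2α subunit itself, had 0.49 (0.37 to 0.62) and Nfe2l2, which codes for the antioxidant factor NRF2 and is a known PERK substrate, 0.84 (0.71 to 0.97). Of the further targets of ATF4 and CHOP, 11 of 21 were tested, with 5 higher, 6 lower, 3 above the all-gene median and a list median of −0.05. Atf5, a factor downstream of ATF4, went from 564 to 304 CPM, a ratio of −0.89 (−0.94 to −0.85), and Cebpb, a partner of CHOP, had −0.87 (−0.92 to −0.82). Ppp1r15b, a subunit that directs the phosphatase of eIF2α, had 0.45 (0.35 to 0.54) and Cth, an enzyme of cysteine synthesis, 0.39 (0.35 to 0.44).

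The amino acid genes linked to ATF4 had 6 of 18 tested, 3 higher and 3 lower, 3 above the all-gene median and a list median of −0.06. The amino acid carrier Slc38a2 had −1.21 (−1.28 to −1.14), from 265 to 114 CPM, and Cbs, which starts the conversion of homocysteine to cysteine, −0.68 (−0.73 to −0.64). The glycine carrier Slc6a9 had 0.93 (0.76 to 1.09) and the aminotransferase Gpt2 0.85 (0.80 to 0.89). Of the aminoacyl-tRNA synthetases, 7 of 18 were higher and 11 lower, 2 above the all-gene median, with a list median of −0.11. They ran from Cars at −0.66 (−0.89 to −0.44) and Tars at −0.53 (−0.63 to −0.42) to Hars at 0.20 (0.05 to 0.35) and Rars at 0.31 (0.10 to 0.53). Genes that respond to the dissociation of tissue also differed between the libraries: 5 of 16 were higher and 11 lower, 2 above the all-gene median, with a list median of −0.17. Egr1 and Zfp36, immediate early genes, had −1.18 and −0.84, and the heat shock genes Dnajb1 and Dnaja1 had 0.73 and 0.40. The part of handling in the diet ratios was not tested.

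Because the libraries differed in mitochondrial share, the diet ratio was read again within ranges of that share, and there the direction for Hspa5 was not the same in every range. At 10 to 20% mitochondrial UMIs (1143 chow and 158 NASH barcodes) Hspa5 stood at 1003 CPM in chow and 861 in NASH, a log2 ratio of −0.22 (−0.27 to −0.17). At 20 to 30% (668 and 719 barcodes) it stood at 996 and 1186, a ratio of 0.25 (0.22 to 0.29). At 30 to 50%, beyond the limit used elsewhere (101 and 183 barcodes), it stood at 1136 and 1490, a ratio of 0.39 (0.29 to 0.50). With the NASH diet Hspa5 was thus lower in the first of these 3 ranges and higher in the others. Below 10%, a small set described further on, it was also lower, at −1.96 (−2.46 to −1.48). Herpud1 had ratios of 0.08 (0.01 to 0.16), 0.34 (0.29 to 0.40) and 0.54 (0.37 to 0.71) in the same 3 ranges. Xbp1 was lower with the NASH diet in each, at −0.67 (−0.76 to −0.57), −0.25 (−0.31 to −0.19) and −0.19 (−0.38 to −0.00). Dnajb9 had −0.15 (−0.31 to 0.01), 0.19 (0.08 to 0.31) and 0.59 (0.22 to 0.97). Atf4 had −0.25 (−0.44 to −0.07), −0.20 (−0.33 to −0.07) and 0.01 (−0.46 to 0.48), so its lower level was not seen at 30 to 50%.

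Ddit3 kept its higher level in these 3 ranges, with ratios of 0.99 (0.51 to 1.44), 0.99 (0.58 to 1.40) and 1.40 (0.27 to 2.72). Below 10%, on 8 chow and 15 NASH UMIs, its ratio was 0.10 (−1.23 to 1.55), and no difference was detectable. Sdf2l1 was lower at 10 to 20% and at 20 to 30%, at −1.14 (−1.38 to −0.90) and −1.26 (−1.43 to −1.08), and at 30 to 50% its ratio was −0.43 (−0.96 to 0.10). Asns had −1.16 (−2.05 to −0.39) and −2.12 (−2.97 to −1.34) in the lower and the upper of the first 2 ranges, and Chac1 −1.41 (−2.43 to −0.54) and −1.78 (−2.45 to −1.15). Beyond 30% these last 2 genes had at most 9 UMIs in a library, and no difference was detectable there. The all-gene median was 0.22, 0.15 and 0.14 in the 3 ranges.

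**Figure D2:**
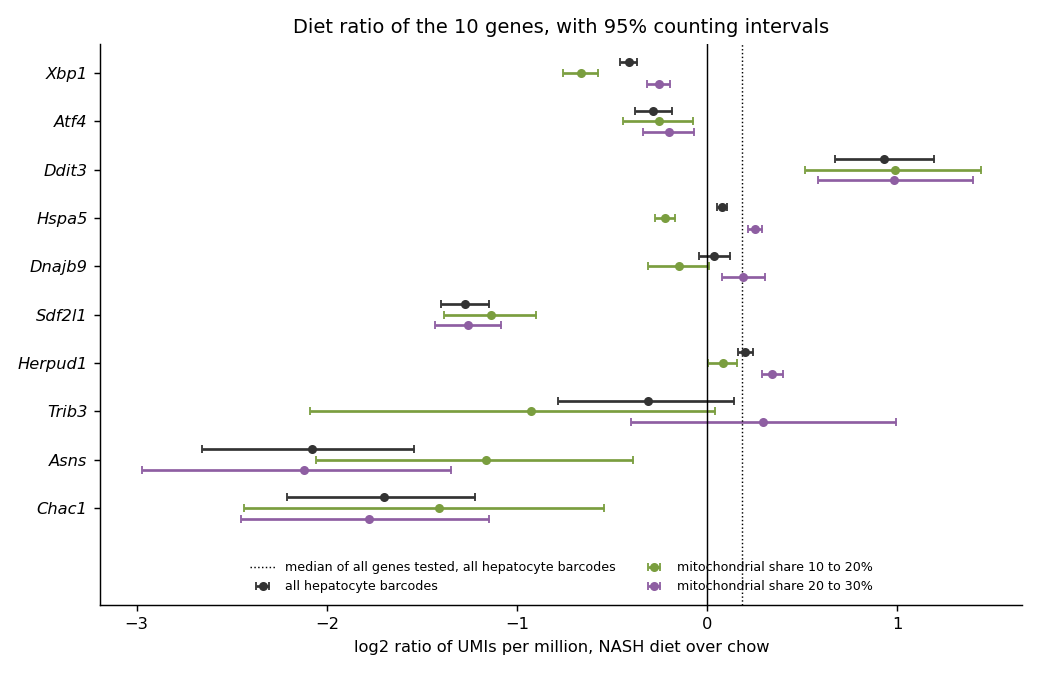
Log2 ratio of each gene between the NASH diet and the chow library, over all hepatocyte barcodes and within 10 to 20% and 20 to 30% mitochondrial share, with exact 95% counting intervals as bars. The solid line marks 0 and the dotted line the median of all genes tested, 0.19, and the interval of Hspa5, unlike those of the other 9 genes, lies below 0 in the lower range (−0.22) and above it in the upper range (0.25).

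The same ranges were then compared within each library. In chow the levels hardly differed between 20 to 30% and 10 to 20%: 10 of 10 members were lower at the higher share (60% of all genes tested had a ratio above 0), by little for the members with many UMIs, with Hspa5 at −0.01 (−0.04 to 0.02) and Xbp1 at −0.05 (−0.10 to 0.00). The interval lay above 0 for 0 members (23.7% of all genes tested) and below 0 for 4 (12.5%), which were Trib3 at −0.71 (−1.30 to −0.16), Asns at −0.44 (−0.84 to −0.06), Sdf2l1 at −0.21 (−0.32 to −0.10) and Herpud1 at −0.06 (−0.11 to −0.01). Ddit3, Trib3, Asns and Chac1, below 10 CPM in both chow ranges, were not among the genes tested. Trib3 and Asns thus could not enter the 12.5%. In the NASH library 5 of 10 had a ratio above 0 (48% of all genes tested) and 5 below, with intervals above 0 for 4 (12.2%) and below 0 for 2 (17.9%). Hspa5 had 0.46 (0.41 to 0.52), Xbp1 went from 276 to 355 CPM, a ratio of 0.36 (0.26 to 0.46), Dnajb9 from 96.5 to 116, a ratio of 0.26 (0.09 to 0.43), and Herpud1 from 449.8 to 519, a ratio of 0.21 (0.13 to 0.29). Sdf2l1 went from 41.4 to 32.9, a ratio of −0.33 (−0.61 to −0.05), and Asns had −1.40 (−2.51 to −0.27) on 14 and 17 UMIs. Trib3, Asns and Chac1, below 10 CPM in both NASH ranges, were not among the genes tested, so Asns could not enter the 17.9%. No difference was detectable for Atf4, Ddit3, Trib3 and Chac1.

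At 30 to 50% over 10 to 20% the NASH library gave 0.79 (0.71 to 0.87) for Hspa5, 0.47 (0.35 to 0.58) for Herpud1 with 622 CPM, 0.44 (0.18 to 0.69) for Dnajb9 and 0.36 (0.21 to 0.51) for Xbp1. Chow gave 0.18 (0.09 to 0.27), 0.01 (−0.13 to 0.15), −0.30 (−0.63 to 0.01) and −0.11 (−0.26 to 0.03) for these 4 genes, and −0.64 (−1.05 to −0.26) for Sdf2l1. Depth and zone moved with mitochondrial share. The median depth at 10 to 20%, 20 to 30% and 30 to 50% was 24703, 17412.5 and 9094 UMIs in chow and 22487.5, 15439 and 8394 in the NASH library. Of the chow barcodes, 260 of 1143 at 10 to 20% and 344 of 668 at 20 to 30% were pericentral by the score given below, and of the NASH barcodes 88 of 158 and 205 of 719. With zone held, the NASH ratio of Hspa5 at 20 to 30% over 10 to 20% was 0.30 in the periportal and 0.41 in the pericentral part, and among barcodes of 10000 to 25000 UMIs it was 0.30. Xbp1 had 0.10 in the periportal and 0.46 in the pericentral part.

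**Figure D3:**
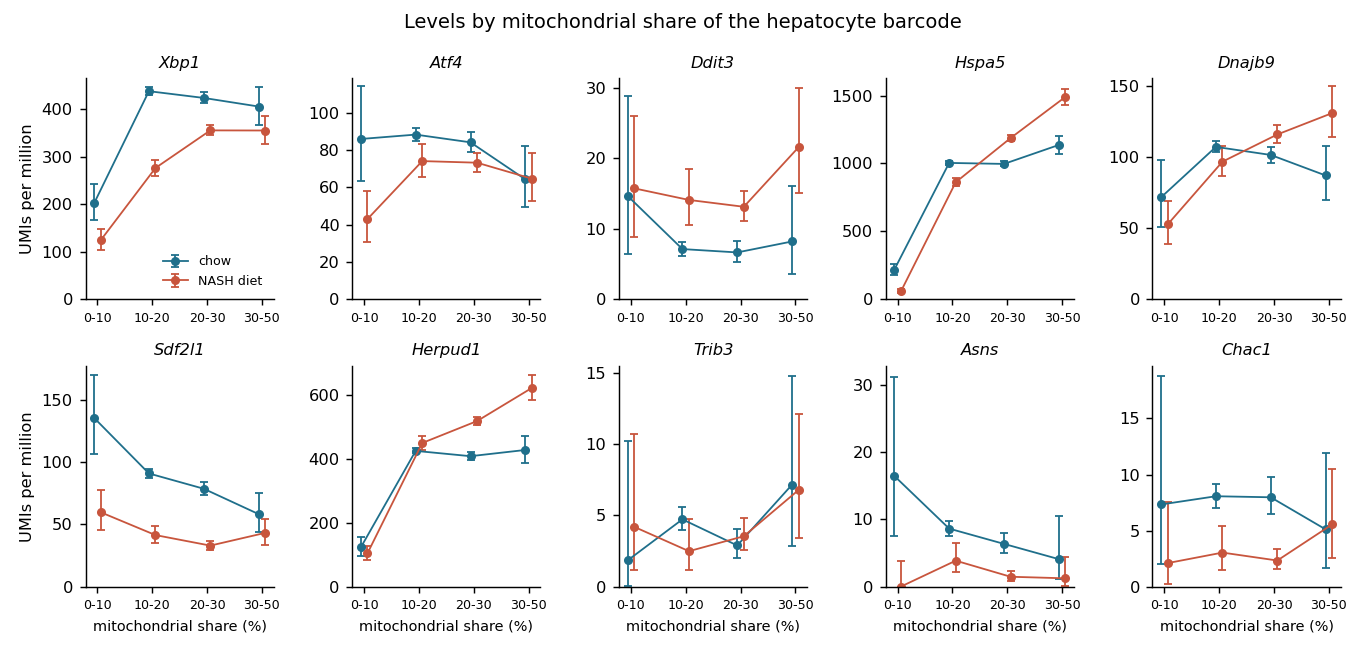
Level of each gene, in CPM, in hepatocyte barcodes of 4 ranges of mitochondrial share, by library, with exact 95% Poisson intervals as bars. In the NASH library Hspa5 goes from 55.5 below 10% to 1490 at 30 to 50%, while in chow it stays near 1000 CPM from 10 to 30%, and Sdf2l1 has its highest level in both libraries below 10%.

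A small set of hepatocyte barcodes with almost no mitochondrial RNA stood apart in both libraries. Below 10% there were 46 chow barcodes (2.48%) and 62 NASH barcodes (6.60%), with a median mitochondrial share of 1.92% and 2.62%. Hspa5 stood at 216 CPM in the chow set and 55.5 in the NASH set, against 1003 and 861 at 10 to 20%, log2 ratios of −2.21 (−2.49 to −1.95) and −3.95 (−4.37 to −3.56). Herpud1 stood at 123 and 104 CPM, ratios of −1.79 (−2.16 to −1.45) and −2.12 (−2.42 to −1.82), and Xbp1 at 201 and 124, ratios of −1.12 (−1.40 to −0.85) and −1.16 (−1.45 to −0.88). Sdf2l1 was higher instead, at 136 against 90.9 CPM in chow, 0.58 (0.22 to 0.91), and at 59.7 against 41.4 in the NASH library, 0.53 (0.06 to 0.98).

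Of the other ER genes, most chaperone and degradation genes were lower in these barcodes as well, and the translocation genes were divided. The ER chaperone list had a median of −1.61 in chow and −2.63 in the NASH library, with 17 of 20 genes lower in each. The ER-associated degradation list had −1.07 and −0.98, with 16 and 15 of 18 lower. The translocation list had −0.21 and −0.93, with 9 of 19 higher and 10 lower in each library, and its summed level was 4148 CPM in the chow set against 3707 at 10 to 20%, and 2942 in the NASH set against 3251. Over all genes the median was −0.55 and −0.64, and 36.5% and 41.7% of genes tested were at least 2-fold lower. In each library 15 of 20 chaperone, 9 of 18 degradation and 9 of 19 translocation genes were at least 2-fold lower. Of the 10 members 4 were in chow and 3 in the NASH library. Trib3, among the 4, was below 10 CPM in both ranges and could not enter the 36.5%. The share of all genes lower by any amount was not counted. The nuclear RNA list, with Malat1 and Neat1, had a median of −3.32 and −3.99, with 5 and 4 of 5 genes lower. Its summed level fell less, to 1048 CPM in the chow set against 2805 at 10 to 20%, and to 1935 in the NASH set against 3762. The median number of genes was 1993 and 2626.5 per barcode, against 4164 and 4206.5 at 10 to 20%. In the NASH set haemoglobin RNA stood at 3409 CPM with a median of 0 UMIs per barcode, and in the chow set at 0. Without these barcodes the diet ratio of Hspa5 was 0.15 in place of 0.08, and that of Herpud1 0.26 in place of 0.20. No member changed direction between the diets. The part of these RNA features in the low levels was not tested.

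Hepatocytes differ along the lobule, from the periportal side, which receives blood rich in oxygen and nutrients, to the pericentral side. The barcodes of each library were ranked by pericentral minus periportal marker genes and cut into 3 parts of equal size, 619 barcodes each in chow and 313 in the NASH library. The parts are ranges of a score and not cell types, and no member is a marker gene of the score. In chow the gradients were shallow. Hspa5 stood at 1032, 1009 and 932 CPM from the periportal to the pericentral part, a log2 ratio of −0.15 (−0.18 to −0.11). Xbp1 stood at 462, 418 and 410.5, a ratio of −0.17 (−0.22 to −0.12), and Herpud1 at 439.7, 429 and 379.8, a ratio of −0.21 (−0.27 to −0.16). These were the 3 members with an interval below 0 (12% of all genes tested), and 0 had an interval above 0 (44.1%). Of the 10 genes, 3 had a ratio above 0 (72.9% of all genes tested, whose median was 0.16), and 0 were 2-fold higher (2.99%) or lower (1.94%). Ddit3, Asns, Chac1 and Trib3, below 10 CPM in both outer parts, were not among the genes tested.

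In the NASH library the Hspa5 ratio was farther from 0 and Atf4 ran the other way, though the difference between the libraries was not tested. Hspa5 stood at 1240, 1157 and 814 CPM, a ratio of −0.61 (−0.66 to −0.55), and Xbp1 at 364, 324 and 293, a ratio of −0.32 (−0.41 to −0.22). Herpud1 stood at 489.6, 510.3 and 446, a ratio of −0.14 (−0.22 to −0.06). These 3 genes were lower on the pericentral side, as in chow. Of the 62 NASH barcodes below 10% mitochondrial UMIs, 2 lay in the periportal, 40 in the middle and 20 in the pericentral part. Hspa5 stood at 55.5 CPM in that set, whose part in the middle levels was not tested. The Hspa5 ratio between the outer parts ran from −0.68 to −0.46 under 10 alternatives. Atf4 stood at 63.2, 68.1 and 81.0, a ratio of 0.36 (0.15 to 0.57), against 88.0, 86.1 and 87.5 in chow. Trib3 had 10, 15 and 29 UMIs, a ratio of 1.13 (0.06 to 2.34). Of the 10 genes 5 had a ratio above 0 (69.9% of all genes tested, whose median was 0.17), 1 was at least 2-fold higher (4.38%) and 0 at least 2-fold lower (1.87%). The interval lay above 0 for 2 (35%), Atf4 and Trib3, and below 0 for 3 (10.7%), Hspa5, Xbp1 and Herpud1. Trib3, Asns and Chac1 were below 10 CPM in both outer parts and not among the genes tested. Trib3, the member at least 2-fold higher, thus could not enter the 4.38% or the 35%. Dnajb9 and Sdf2l1 had their highest level in the middle part, at 124 and 47.0 CPM, against 102 and 33.7 on the periportal and 99.1 and 30.04 on the pericentral side.

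Read the other way, the diet ratio of Hspa5 was 0.27 (0.22 to 0.31) in the periportal part, 0.20 (0.15 to 0.24) in the middle part and −0.20 (−0.24 to −0.15) in the pericentral part. Atf4 had −0.48 (−0.66 to −0.29), −0.34 (−0.52 to −0.16) and −0.11 (−0.26 to 0.04). Ddit3 had 0.96 (0.41 to 1.49), 0.73 (0.30 to 1.16) and 1.12 (0.68 to 1.56), and Sdf2l1 −1.30 (−1.55 to −1.06), −0.96 (−1.16 to −0.75) and −1.58 (−1.80 to −1.36), so both kept their direction along the lobule. Asns differed most in the middle part, with 151 UMIs in chow and 5 in the NASH library, a ratio of −3.52 (−5.16 to −2.26), against −2.0004 (−3.26 to −0.96) on the periportal and −1.14 (−1.96 to −0.39) on the pericentral side. The difference between these ratios was not tested. Median mitochondrial share differed between the parts too, at 18.0%, 17.9% and 20.5% in chow and 24.6%, 24.0% and 22.5% in the NASH library. Barcodes below 10% mitochondrial UMIs, low in Hspa5, were unevenly spread, with 1, 30 and 15 in chow and 2, 40 and 20 in the NASH library. Their part in the diet ratios by zone, above all in the middle part, was not tested.

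**Figure D4:**
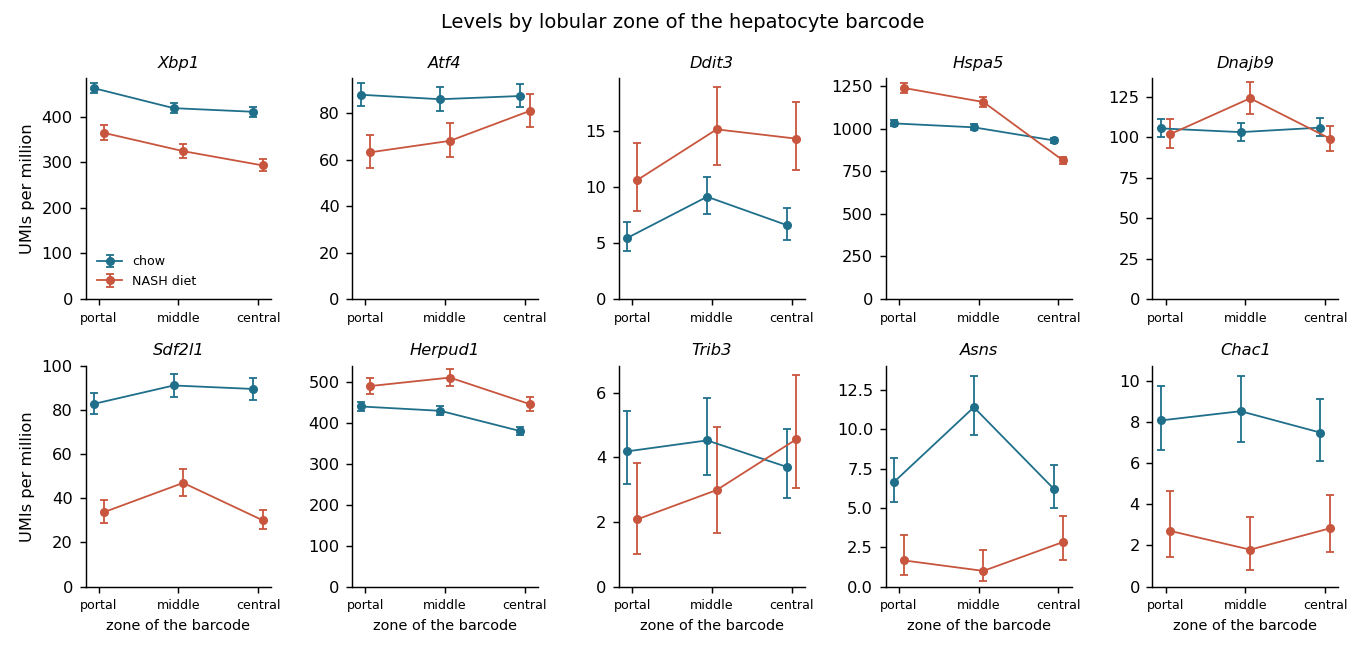
Level of each gene, in CPM, in the periportal, middle and pericentral parts of the hepatocyte barcodes, by library, with exact 95% Poisson intervals as bars. The lines of Hspa5 cross, with the NASH library above chow on the periportal side (1240 against 1032) and below it on the pericentral side (814 against 932), and Asns has its highest chow level in the middle part.

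Barcodes were then thinned to 5000 UMIs each, so that the share of barcodes with a UMI does not follow depth. Hspa5 had a UMI in 97.9% (97.1 to 98.5) of chow barcodes and in 92.9% (91.0 to 94.4) of NASH barcodes, against 99.2% and 96.0% unthinned. Xbp1 was read in 86.4% (84.7 to 87.9) and 76.5% (73.6 to 79.1), Herpud1 in 82.9% (81.1 to 84.6) and 86.6% (84.2 to 88.7), and Sdf2l1 in 32.8% (30.7 to 35.0) and 14.8% (12.6 to 17.2). Of these, Herpud1 had the larger share with the NASH diet and the others the smaller. Dnajb9 was read in 40.3% (38.1 to 42.6) and 38.6% (35.4 to 41.7), and Atf4 in 34.0% (31.8 to 36.2) and 27.6% (24.7 to 30.6). The rare genes were Ddit3, with 4.15% (3.29 to 5.16) and 6.39% (4.91 to 8.15), Asns, with 4.15% (3.29 to 5.16) and 0.532% (0.173 to 1.24), Chac1, with 3.12% (2.38 to 4.02) and 1.06% (0.512 to 1.95), and Trib3, with 1.99% (1.41 to 2.74) and 1.92% (1.14 to 3.01). The intervals of Trib3, Dnajb9 and Ddit3 overlapped between the libraries, and so did those of Herpud1, which without the barcodes below 10% mitochondrial UMIs were 83.9% (82.1 to 85.5) and 89.3% (87.0 to 91.3) and did not overlap.

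Hspa5 varied more between NASH barcodes than between chow barcodes. At that fixed depth its variance over its mean was 2.45 in the NASH library and 1.49 in chow, where a value of 1 would be counting noise alone. Most barcodes with no Hspa5 UMI before thinning lay in the small set below 10% mitochondrial UMIs, where 33 of 46 chow and 29 of 62 NASH barcodes held any, against 154 of 158 and 718 of 719 NASH barcodes in the ranges above. Without that set, an alternative added after seeing the data, the variance over the mean of Hspa5 was 2.09 in the NASH library and 1.40 in chow, and 98.2% and 99.1% of thinned barcodes held a UMI of it. Over all thinned barcodes Herpud1 had 1.39 in the NASH library and 1.41 in chow, and Xbp1 1.29 and 1.26. Without that set Herpud1 had 1.30 and 1.38 and Xbp1 1.23 and 1.24, so those genes were much alike in both libraries. Across barcodes, which share a library and were thinned to the same depth, Hspa5 had a Pearson r of 0.28 with Herpud1 and 0.28 with Xbp1 in the NASH library (939 barcodes), and of 0.21 and 0.14 in chow (1857 barcodes). With Sdf2l1 and Atf4 it had 0.07 and 0.05 in the NASH library, and 0.00 and 0.01 in chow. Without the set below 10% the r of Hspa5 in the NASH library was 0.11 with Herpud1 and 0.18 with Xbp1, and in chow 0.16 and 0.10. In sparse counts such weak values are a description only. In the thinned data Ddit3 was read in 77 chow and 60 NASH barcodes. Those NASH barcodes held a mean of 6.67 Hspa5 and 0.517 Atf4 UMIs, against 5.56 and 0.332 in the barcodes without Ddit3. In chow the means were 5.21 and 0.312 with Ddit3, and 5.10 and 0.432 without it. Of the other members, Xbp1, Herpud1, Dnajb9 and Sdf2l1 also had higher means in the NASH barcodes with Ddit3. Lower there were Trib3, at 0.0167 against 0.0193, Asns, at 0 against 0.00569, and Chac1, at 0 against 0.0114. These means rest on few barcodes with Ddit3, and the differences were not tested.

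In cells other than hepatocytes Hspa5 was again the member with the highest level, while the level of Herpud1 was well below that in hepatocytes. Barcodes with the markers of a class and little hepatocyte RNA numbered 68 and 68 for endothelial-like cells, 65 chow and 39 NASH barcodes for Kupffer-like cells, the resident macrophages, and 24 and 48 for other leukocytes. The endothelial-like set had the mesenchymal gene Dcn among its leading genes in both libraries and Col1a2 in the NASH library, and its mesenchymal markers summed to 6084 and 6773 CPM. Its Kupffer markers summed to 6903 CPM in chow and 2076 in the NASH library. The NASH Kupffer-like barcodes were shallow, with a median of 999 UMIs against 4112 in chow. The other leukocytes differed in makeup between the libraries, with 7 and 20 T or NK cell-like barcodes, 8 and 4 neutrophil-like, and 0 and 2 plasma cell-like. Hepatocyte RNA was present in these barcodes, where hepatocyte markers were a median 0.526% and 0.353% of the UMIs of endothelial-like barcodes, 0.550% and 2.70% of Kupffer-like and 1.17% and 0.785% of the others.

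Atf4 was higher in endothelial-like barcodes than in hepatocytes, at 188 CPM in chow and 207 in the NASH library, log2 ratios over hepatocytes of 1.11 (0.76 to 1.44) and 1.53 (1.25 to 1.80). The all-gene median of that comparison was 1.20, within the interval, in chow, and 1.17, below the interval, in the NASH library, and 55.2% and 53.6% of genes tested were at least 2-fold higher against 1 and 1 of the 10 members. Herpud1 was lower than in hepatocytes in each of these 3 sets, at 122 and 187 CPM in endothelial-like, 49.2 and 187 in Kupffer-like and 99.4 and 157 in other leukocyte-like barcodes. Its ratios over hepatocytes ran from −3.08 (−3.86 to −2.40) in chow Kupffer-like barcodes to −1.36 (−2.31 to −0.55) in NASH Kupffer-like barcodes. Hspa5 stood at 652 and 583 CPM in endothelial-like barcodes and at 229 and 412 in other leukocytes. In chow Kupffer-like barcodes it stood at 972 CPM, and Xbp1 at 422, both within counting error of the hepatocyte levels. The all-gene median of that comparison was 0.88, and once it is subtracted the log2 ratios of both were −0.91.

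Ddit3 was higher in chow Kupffer-like barcodes than in chow hepatocytes, at 31.8 CPM on 11 UMIs, a ratio of 2.17 (1.15 to 3.03). Once the all-gene median of 0.88 is subtracted, that ratio was 1.29. In endothelial-like barcodes it stood at 12.2 and 20.3 CPM on 5 and 12 UMIs, with intervals over hepatocytes that include 0. Asns, Chac1 and Trib3 had 0 to 3 UMIs in each class and library, too few for a level at this depth. Kupffer-like barcodes had at least 2-fold higher values for 46.8% of genes tested in chow and 41.3% in the NASH library, and other leukocytes for 37.9% and 36%, against 1 of the 10 members in each of these 4 comparisons. That member was Ddit3 in both Kupffer-like sets and in the chow leukocytes, on 11, 4 and 5 UMIs, and Asns on 3 UMIs in the NASH leukocytes, where its interval included 0. Asns was below 10 CPM in both sets of that comparison and could not enter the 36%.

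Between the diets, endothelial-like barcodes had a lower level of Xbp1, −0.46 (−0.82 to −0.11), as hepatocytes did, and higher levels of Herpud1, 0.61 (0.12 to 1.12), and Dnajb9, 0.82 (0.09 to 1.60). Sdf2l1 went from 56.2 to 30.5 CPM there, with a ratio of −0.88 (−1.86 to 0.07). The sum of Kupffer markers in these barcodes, 6903 and 2076 CPM, moved with the diet, and its part in the ratios was not tested. In the other leukocytes Hspa5 and Xbp1 had ratios of 0.85 (0.36 to 1.36) and 0.80 (0.13 to 1.52), between sets of unlike makeup. The 2 plasma cell-like barcodes, of cells that secrete antibody, came from the NASH library only and stood at 729 CPM for Hspa5, 493 for Xbp1 and 197 for Dnajb9. The shallow Kupffer-like barcodes gave −0.92 (−1.48 to −0.40) for Hspa5, −1.59 (−2.75 to −0.63) for Xbp1 and 1.93 (0.73 to 3.08) for Herpud1, on 33, 9 and 12 NASH UMIs, and the part of the hepatocyte RNA in these values was not tested.

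**Figure D5:**
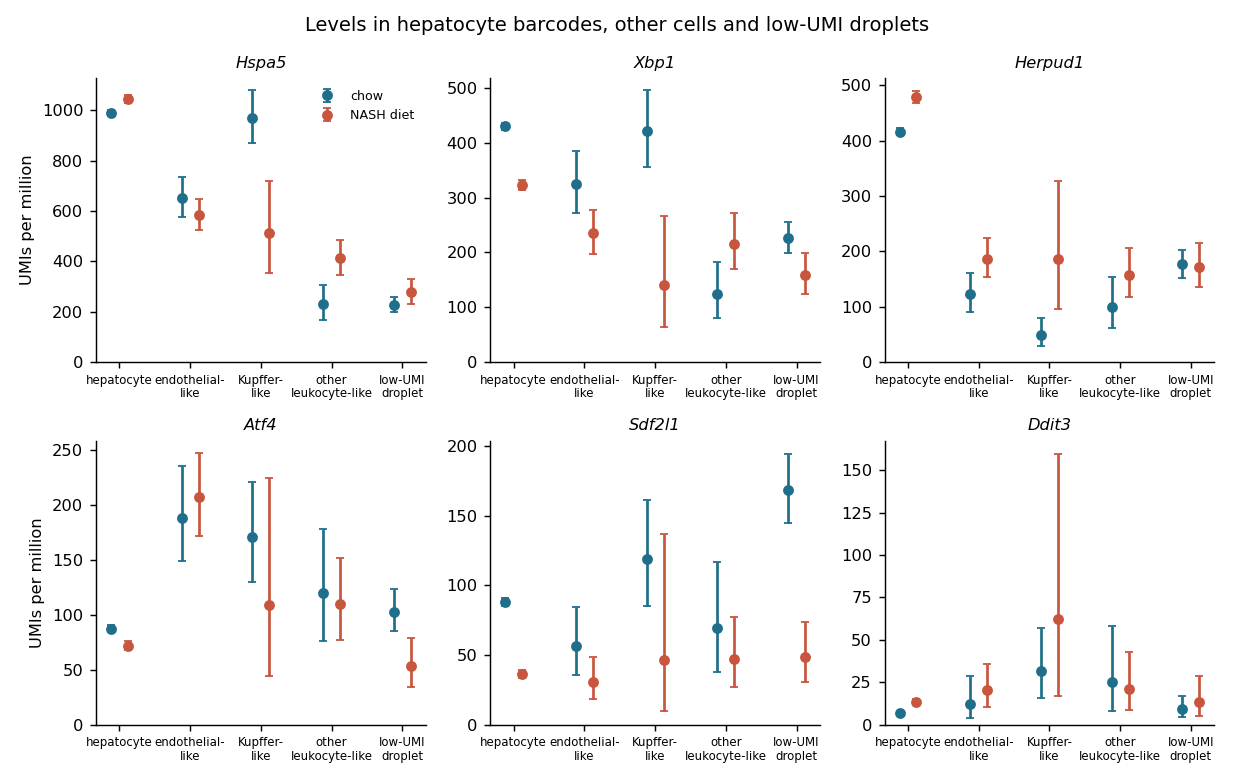
Level of 6 of the genes, in CPM, in hepatocyte barcodes, 3 sets of other cells and droplets under 1000 UMIs, by library, with exact 95% Poisson intervals as bars. The droplets shown have at most 30% mitochondrial UMIs. Herpud1 is highest in hepatocytes (416 and 479), Atf4 in endothelial-like barcodes (188 and 207), and Sdf2l1 in the chow low-UMI droplets (168).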

How the data were processed

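Single-cell 3′ RNA libraries of 1 chow and 1 NASH liver sample were read from the matrices that the authors deposited, which hold raw UMI counts, whole numbers for each gene in each barcode. The processing notes of the submitters name Cell Ranger 3.1.0, Seurat and the build mm10, whereas Cell Ranger 3.0.2 wrote the matrices per the file headers. The sources used here do not give the rule by which cells were called or whether strand was counted. A deposited matrix that merges both libraries held 86.4% of the UMIs of chow and 100% of those of the other library and served as an alternative. Columns left unmatched to a sample numbered 0. Of the gene IDs, 99.6% were found in GENCODE M21 (GRCm38), used for positions only. The members, the companion lists and the lists given beside the results were chosen with earlier results of these data known.

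Hepatocyte barcodes had at most 30% mitochondrial UMIs, at least 5000 other UMIs and a hepatocyte marker share of at least 50% of the median of deep barcodes. Barcodes with 3 or more UMIs over 2 or more marker genes of another class were left out as possible doublets (6 chow, 6 NASH diet), and 116 and 101 deep barcodes met neither rule. Within 10% of the marker limit lay 49 and 81 barcodes. Scrublet called 0 doublets in either library by its own threshold, which therefore did not work here. Other cells had 3 or more UMIs over 2 or more marker genes, at least 300 UMIs and under 50% of that hepatocyte share. The thresholds of these rules were set after the data had been seen, as was the range below 10% mitochondrial UMIs. Zone scores used 13 pericentral and 18 periportal genes in chow and 15 and 18 in the NASH library.

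Levels (CPM) are UMIs per 1000000 non-mitochondrial UMIs, and ratios carry exact conditional binomial intervals at 95%. The computation was tested on simulated counts. The floor for a level was 3 counts. Named were the 10 members, in each companion list the 2 tested genes highest and the 2 lowest in diet ratio, and for each member the 2 genes most like it over 28 strata. For Ddit3, 1 of these 2 is not reported here. Tools were Python 3.11.15, numpy 2.4.6, pandas 2.3.3, scipy 1.17.1, scanpy 1.11.5 and matplotlib 3.10.9.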

Additional observations from a re-analysis of the deposited data

Results flagged for a closer look

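Herpud1 moved in opposite directions with mitochondrial share in the 2 libraries. From 10 to 20% up to 20 to 30% mitochondrial UMIs its level in hepatocyte barcodes had a log2 ratio of −0.057 in the chow library, with an interval below 0, and of 0.21 in the NASH library, with an interval above 0. With 1 library per diet the difference itself was not tested. Within the periportal and the pericentral part of the chow library the ratio was 0.041 and 0.026, so the chow direction seen with the zones pooled was not seen in these parts, while the NASH ratio was 0.23 and 0.13 in the same parts.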

How the results depend on the processing

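The diet ratios of Asns, Chac1, Sdf2l1, Atf4 and Xbp1 stayed below 0 and that of Ddit3 above 0 under all 22 alternatives run for each, with ranges of −3.52 to −0.60, −2.25 to −0.53, −1.58 to −0.96, −0.48 to −0.11, −0.83 to −0.25 and 0.46 to 1.12. Ratios of Dnajb9 and Trib3, whose intervals include 0, ranged from −0.28 to 0.27 and from −1.01 to 0.30. The diet ratio of Hspa5 became −0.11 with the median of all genes set to 0, −0.51 at a mitochondrial limit of 20%, −0.22 at 10 to 20% only, −0.20 in the pericentral part only and −0.032 without the 50 genes with the most UMIs in the denominator, and that of Herpud1 −0.15 at the limit of 20%. That limit kept 46 chow barcodes below 10% beside 1143 at 10 to 20%, and 62 beside 158 in the NASH library. The small set thus weighed more in the NASH library there. At 10 to 20% only, without it, the ratio of Herpud1 was 0.08. The median over the members became −0.48 with the median of all genes set to 0, −0.61 at the limit of 20%, −0.46 at 10 to 20%, −0.0046 at 20 to 30% and 0.039 over the 7 members that passed the filter on low values, which leaves out Asns, Chac1 and Trib3. Ddit3 passed that filter through the NASH library alone. Members above 0 numbered 2, 1, 2 and 2 with the median set to 0, at the limit of 20%, at 10 to 20% and without those 50 genes. At least 2-fold higher was 1 member at a limit of 50%, with no limit and in the pericentral part, and at least 2-fold lower was 1 member with a pseudocount of 10. Within the chow library the ratio of Asns with mitochondrial share became 0.11 in the periportal part and that of Herpud1 0.026 in the pericentral and 0.041 in the periportal part, and the NASH zone ratio of Herpud1 became 0.0090 at the limit of 20%. The causes were not tested. Alternatives chosen after seeing the data were the depth window of 10000 to 25000 UMIs, the mitochondrial ratios within zones, the zone ratios at 20 to 30% mitochondrial share, leaving out the top barcode of each gene and leaving out barcodes below 10%, for the thinned barcodes too. No paired analysis was possible because each diet has 1 library.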

Other observations

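Droplets under 1000 non-mitochondrial UMIs, with no cell class and at most 30% mitochondrial UMIs, numbered 1774 in chow and 607 in the NASH library. Their median mitochondrial share was 6.43% and 23.95%. A further 158 and 1586 such droplets had 30 to 80% mitochondrial UMIs and are not in the values below. The part of this difference in the diet ratios was not tested. The droplets up to 30% held the members in other proportions than hepatocyte barcodes. Hspa5 stood at 226 and 278 CPM, Xbp1 at 226 and 159, Herpud1 at 176 and 172 and Atf4 at 103 and 52.9. Sdf2l1 stood at 168 CPM in the chow droplets, above its 87.9 in chow hepatocytes, and at 48.5 in the NASH droplets, a diet log2 ratio of −1.79 (−2.50 to −1.15). In barcodes with over 80% mitochondrial UMIs, 2570 and 1122 in number, Hspa5 stood at 683 and 840.5 CPM, and Ddit3 at 11.9 and 44.6 on 8 and 21 UMIs, a diet log2 ratio of 1.90 (0.67 to 3.29). The all-gene median between the diets was 0.40 in the droplets and 0.51 in the barcodes over 80%. Once it is subtracted, the ratio was −2.20 for Sdf2l1 in the droplets and 1.39 for Ddit3 over 80%.

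Across 28 sets of barcodes (by library, zone, mitochondrial range and cell class, those of a library sharing its preparation), genes most like the members in log2 level are given as a description. Hspa5 was most like Atp2a2, the calcium pump of the ER (Pearson r 0.95), and Sppl2a, an intramembrane protease (0.95). Xbp1 was most like Tram1, a protein of the ER translocation channel (0.94), and Slc30a1, a zinc exporter (0.92). Herpud1 was most like Lpgat1 (0.97) and Ildr2 (0.94), Dnajb9 like the ER membrane genes Tmem33 (0.87) and Surf4 (0.87), and Atf4 like Mid1 (0.89) and Cggbp1 (0.88). Sdf2l1 was most like Erg28 (0.82) and Fdps (0.81), both genes of sterol synthesis, and Fdps was also among the genes most like Asns (0.77), after Tifa (0.79). Tk1 was among the genes most like Ddit3 (0.81). Chac1 was most like A2ml1 (0.78) and Cldn14 (0.74), and Trib3 like Yif1a (0.72) and Prkaca (0.72). Among the members, r was 0.84 for Hspa5 with Xbp1, 0.71 for Hspa5 with Herpud1 and 0.70 for Xbp1 with Dnajb9. It was 0.69 for Asns with Sdf2l1, 0.60 for Asns with Chac1 and −0.56 for Ddit3 with Chac1. The sets come from both libraries, so these r values also take in the differences between the diets. Asns, Chac1 and Trib3 had few UMIs in the sets of other cells.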
